A study of Mus musculus with 12 samples.

Results

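The genes described here encode the proteins of the cytosolic ribosome, measured in the mouse striatum with whole-transcript arrays. They were taken by symbol, as Rpl or Rps followed by a number, Rplp0, Rplp1, Rplp2 and Rpsa, without kinases, binding proteins and pseudogenes, and each gene was read from its probe set with the highest mean. The rule found 61 of the 19938 genes that had a probe set of a single symbol. Of these, 60 were tested, 34 of the large subunit, 21 of the small subunit and 5 tissue-restricted or divergent paralogs. The remaining gene, Rpl39l, a paralog of Rpl39, averaged 4.48 on the log2 scale and did not exceed the 25th percentile of any of the 12 arrays. By its symbol Rpl32l was counted with the large subunit, since the list of paralogs did not hold it. The rule itself reads symbols, and the mean level was used to pick the probe set of each gene.

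Striatum came from 90-day-old male mice on a mixed 129, CD-1, C57BL/6 and FV background. All mice were homozygous for a knock-in allele of the Huntington's disease gene Hdh, now named Htt, either Q111, with an expanded glutamine repeat, or Q20, the control length. By their labels they were homozygous for loss of Grm5 (mGluR5-/-) or had it intact (mGluR5+/+). Grm5 encodes mGluR5, a metabotropic receptor for glutamate. The 4 groups were Q111 mGluR5-/-, Q111 mGluR5+/+, Q20 mGluR5-/- and Q20 mGluR5+/+, with 3 arrays each. No group lacked a knock-in allele, and the labels do not restrict the loss of mGluR5 to a cell type or say whether the 3 arrays came from separate animals, so that the p-values cover only the spread among these arrays, which may be technical. In bulk tissue, fewer cells of a type and less RNA per cell cannot be told apart.

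The cytosolic ribosome is built from ribosomal RNA and about equal amounts of each of its proteins, and cells are known to make these proteins in balance. Many of their mRNAs begin with a C followed by a run of pyrimidines, the TOP motif, through which the kinase mTOR controls their translation more than their abundance. Group I metabotropic receptors, of which mGluR5 is a member, are known to stimulate protein synthesis in neurons through mTOR and ERK, which makes the ribosome a natural set of genes to read in mice without the receptor. Transcription of ribosomal protein genes is known to use GC-rich promoters, many with binding sites for ETS factors of the GABP type, whose core is CCGGAA.

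To show what the promoters of the genes with a called change look like beside promoters that start on a pyrimidine run, 100 bases around the annotated start, 80 before and 20 from it, are printed for Rpl26, Rpl34 and Rps3a1, and for Rplp2 and Rps6, which belong to the minority of members with such a start. The sequences are those of RefSeq on GRCm38.p6, each 5′ to 3′ on the strand of its gene, and capitals mark CCGGAA or its reverse complement TTCCGG, or the run of pyrimidines that opens with C at the annotated start. RefSeq gives Rpl34 2 starts in this table, of which the downstream is shown.
Rpl26 (chr11:68901486-68901585, plus strand): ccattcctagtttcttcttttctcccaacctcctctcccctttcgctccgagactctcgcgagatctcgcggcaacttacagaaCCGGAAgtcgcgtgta
Rpl34 (chr3:130730318-130730417, minus strand): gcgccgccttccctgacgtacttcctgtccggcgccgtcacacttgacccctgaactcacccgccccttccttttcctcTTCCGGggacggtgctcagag
Rps3a1 (chr3:86142649-86142748, minus strand): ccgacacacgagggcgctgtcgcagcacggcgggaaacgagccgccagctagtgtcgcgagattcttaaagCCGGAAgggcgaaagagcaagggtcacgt
Rplp2 (chr7:141447571-141447670, plus strand): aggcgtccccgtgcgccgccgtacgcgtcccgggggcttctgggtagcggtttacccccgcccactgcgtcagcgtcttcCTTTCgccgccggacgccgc
Rps6 (chr4:86857348-86857447, minus strand): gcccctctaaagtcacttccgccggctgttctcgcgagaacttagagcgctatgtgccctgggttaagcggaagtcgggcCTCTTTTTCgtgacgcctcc
In the windows shown, all 3 genes with a called change had a CCGGAA on either strand. None of them had a C with 4 pyrimidines exactly at the annotated start. Rplp2 and Rps6 had no CCGGAA on either strand in the windows shown, but both had it in the wider window counted below. For Rpl34 the CCGGAA depended on the start chosen. Its upstream start had no CCGGAA on either strand, neither in a window of this size nor in the wider window counted below. That start had no such pyrimidine run either.

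The table of promoters matched 49 of the 61 genes. Within 250 bases before to 50 after the start, CCGGAA occurred on either strand in 53.1% of these genes, against 16.7% of all 27025 genes in the table. A C followed by 4 pyrimidines (C or T) stood exactly at the annotated start in 20.4% of them, against 3.01% of all genes, and within 2 bases of it in 30.6% against 10.6%. TATAAA on either strand was found in 12.2% of the ribosomal protein genes and 15.7% of all genes. These are matches of letters around annotated starts, and no binding was measured.

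The deposited values are log2 signals after RMA, and array medians lay between 7.05 and 7.16. The level at the 25th percentile, used as the floor for testing, was 5.69 to 5.94. The 60 tested ribosomal protein genes had mean signals of 5.82 (Rpl3l, a paralog known from striated muscle) to 12.96 (Rpl21), which are signals of different probes and do not rank the genes by abundance. Arrays of a group differed for these genes about as much as for others, with a median SD within groups of 0.144 log2 units, against 0.139 over the 16721 tested genes. The SD was largest for Rpl38 (0.32) and smallest for Rps6 (0.06), the substrate of S6 kinase. Grm5 was read first as the targeted gene. It was 11.14, 11.09 and 10.98 in Q111 mGluR5-/- arrays, against 11.96, 12.01 and 11.85 in Q111 mGluR5+/+ arrays. It was 11.06, 10.93 and 11.17 in Q20 mGluR5-/- arrays, against 11.95, 12.08 and 11.97 in Q20 mGluR5+/+ arrays. All knockout arrays lay below all others, though still above the array medians. What the remaining signal reads was not tested. Of 48 tested markers of striatal neurons, glia, vessels, choroid plexus, blood and neighbouring brain regions, 0 were called in any of the 7 comparisons described below, and the striatal marker Ppp1r1b lay between 11.37 and 11.60. Some markers of other cells or regions varied more between arrays. Ttr of the choroid plexus lay between 6.30 and 9.28, Prkcd, a thalamic marker, between 6.97 and 8.45, and Slc17a6 of glutamatergic neurons below the cortex between 5.46 and 6.94. All 6 endothelial and mural markers were below 0 in the average of Q111 against Q20 (median -0.23, smallest limma adjusted p = 0.0817 for Flt1). All 5 markers of thalamus, hypothalamus and septum were below 0 for Q111 with mGluR5 (median -0.16, smallest limma adjusted p = 0.254 for Prkcd). They were also all below 0 for mGluR5 loss in Q20 mice (median -0.20, smallest limma adjusted p = 0.448 for Prkcd). For Q111 without mGluR5 4 of the 5 were above 0, and for mGluR5 loss in Q111 mice 3 of 5. The part of these differences in the results below was not tested.

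Most ribosomal protein genes differed little between any of the groups. In mice with mGluR5 the Q111 allele came with lower Rpl26 and higher Rpl34, and in mice without mGluR5 with lower Rpl26 and higher Rps3a1. Loss of mGluR5 came with higher Rpl34 in Q20 mice and with no called change in Q111 mice. A gene is named as called at a limma adjusted p below 0.05, adjusted over all 16721 tested genes. In the effect of Q111 with mGluR5 this made 2 of 60 genes (3.33%), against 0.574% of all tested genes. Without mGluR5 it made 2 of 60 as well, against 0.885%. In the effect of mGluR5 loss in Q20 mice it made 1 of 60 (1.67%), against 0.299%. In Q111 mice it made 0 of 60, against 0.275%, while 4 of the 60 had an unadjusted limma p below 0.05 (6.67%, against 4.36% of all genes). With 0 to 2 genes per comparison, nothing particular to the ribosome is read from these shares.

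**Figure D1:**
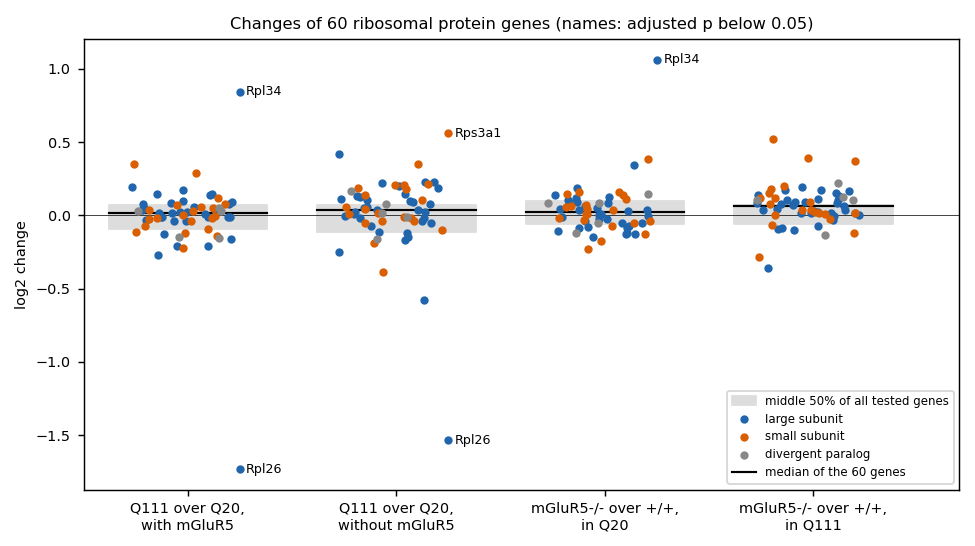
Log2 change of the 60 tested ribosomal protein genes (dots) in the 4 comparisons, by class, with the median of the genes (line) and the middle 50% of all tested genes (grey). Rpl26 lies at -1.73 and -1.53 in the 2 effects of Q111, and Rpl34 at 0.84 and 1.06 in the comparisons where it was called, while most other genes lie within or near the grey band.

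The changes of the group as a whole were small in each comparison. The median log2 change of the 60 genes was 0.02 for Q111 against Q20 with mGluR5, where that of all tested genes was -0.01, and 33 of 60 were above 0, against 7675 of 16721. Without mGluR5 the median was 0.04, against -0.02 for all genes, and 37 were above 0, against 7240. For mGluR5-/- against mGluR5+/+ it was 0.02 in Q20 mice, as for all genes, with 33 above 0, against 9530. In Q111 mice it was 0.07, against 0.01 for all genes, with 47 of 60 above 0, against 8803. The large subunit (26 of 34 above 0, median 0.05) and the small subunit (17 of 21, median 0.04) were alike in this last comparison. Single arrays moved these medians. With 1 array left out they lay between -0.029 (without replicate 3 of Q20 mGluR5+/+) and 0.056 (without replicate 3 of Q111 mGluR5+/+) for Q111 with mGluR5. Without mGluR5 they lay between -0.024 and 0.108, without replicates 3 and 2 of Q20 mGluR5-/-. For mGluR5 loss they lay between -0.068 and 0.080 in Q20 mice, without replicates 2 and 3 of Q20 mGluR5-/-. In Q111 mice they lay between 0.013 and 0.102, without replicates 3 and 2 of Q111 mGluR5+/+. No test was made of these medians, and the comparisons share groups.

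For most genes the data bounded the change of the chosen probe set in the simple comparisons. The bound does not cover differences between probe sets of a gene, which are given below. The 95% interval of limma lay wholly within a 1.5-fold change in either direction for 57 of 60 genes in the effect of Q111 with mGluR5 (95% of them, and 95.2% of all tested genes). The exceptions were Rpl26, Rpl34 and Rps13. Without mGluR5 it did so for 54 genes (90%, and 93.8% of all), the exceptions being Rpl14, Rpl26, Rpl34, Rplp2, Rps19 and Rps3a1. For loss of mGluR5 it did so for 57 genes in Q20 mice, all but Rpl10a, Rpl34 and Rps19 (96.0% of all genes), and for 57 in Q111 mice, all but Rpl34, Rps3a1 and Rps9 (96.5% of all genes). Averaged over the other genotype, 59 of 60 lay within that bound in both averages, all but Rpl26 for the allele (98.7% of all genes) and all but Rpl34 for the receptor (99.3%). The interaction was bounded less closely, for 40 of 60 genes (66.7%, and 79.7% of all genes), with a median SE of 0.162.

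Rpl26 had the largest change. It encodes a large-subunit protein at the rim of the exit tunnel, which in human cells is also known to bind p53 mRNA. Its signal (Entrez 19941, chromosome 11 in RefSeq, 1 probe set) was 7.43, 7.38 and 7.58 in Q111 mGluR5-/- arrays, against 8.88, 9.31 and 8.81 in Q20 mGluR5-/- arrays. It was 7.61, 7.24 and 7.03 in Q111 mGluR5+/+ arrays, against 9.16, 9.05 and 8.85 in Q20 mGluR5+/+ arrays. Every Q111 array was below every Q20 array, with a gap of 1.201 between the nearest, while the mGluR5 genotypes overlapped in both alleles. The log2 change was -1.53 ± 0.15 (SE, limma adjusted p = 6.36e-05) without mGluR5 and -1.73 ± 0.15 (limma adjusted p = 2.35e-05) with it. Averaged over both it was -1.63 ± 0.11, a 3.10-fold lower signal in Q111 mice (limma adjusted p = 5.25e-07). In this average Rpl26 was the single called gene of 60 (1.67%, against 1.32% of all genes). The effects with and without mGluR5 differed by 0.20 ± 0.22 (limma adjusted p = 1.0). Loss of mGluR5 gave 0.18 ± 0.15 in Q111 mice and -0.02 ± 0.15 in Q20 mice, neither past the test.

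**Figure D2:**
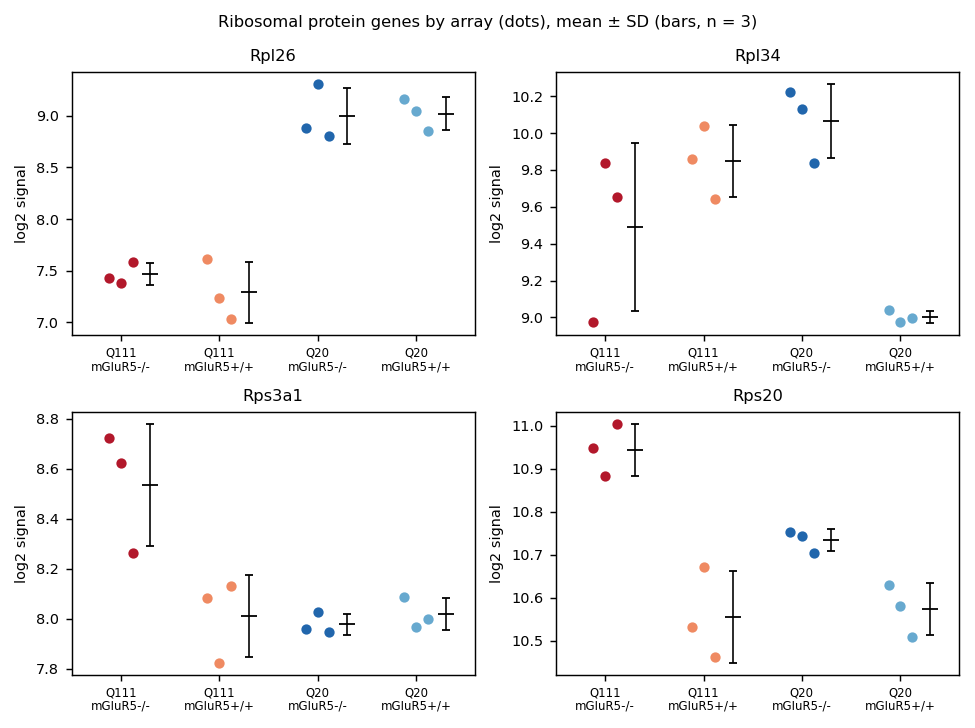
Log2 signal of Rpl26, Rpl34, Rps3a1 and Rps20 in each array (dots) by group, with the mean and SD of each group (bars, n = 3); each panel has its own axis. Rpl26 separates the alleles, Rpl34 is near 9.0 in all 3 Q20 mGluR5+/+ arrays and in 1 Q111 mGluR5-/- array, Rps3a1 is at 8.26 or more in the Q111 mGluR5-/- arrays and at 8.13 or less in the others, and Rps20 is higher in the mGluR5-/- arrays of both alleles.

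The lower Rpl26 signal came from its single probe set that carries no other symbol. On this array 3 more probe sets list Rpl26 beside a second symbol, and the files do not say which locus each of them reads. These sets did not show the fall. The second of them was 9.97, 10.05 and 9.92 in Q111 mGluR5-/- arrays, against 9.40, 9.77 and 9.04 in Q20 mGluR5-/- arrays. In Q111 mGluR5+/+ arrays it was 9.97, 10.14 and 9.85, against 9.67, 9.54 and 9.53 in Q20 mGluR5+/+ arrays. All 6 Q111 arrays therefore lay above all 6 Q20 arrays, opposite to the set of Rpl26 alone. Its average log2 change was 0.49 ± 0.11 (limma adjusted p = 0.0423 over 27688 probe sets). The first shared set changed by 0.39 ± 0.10 on average (limma adjusted p = 0.101) and the third by -0.16 ± 0.18 (limma adjusted p = 0.806). The sets that list Rpl26 thus ran in opposite directions, and which of them follows its mRNA was not tested. Among the 10 tested neighbours of Rpl26, 5 on each side, 1 was called in the average effect of the allele. This was Odf4, a sperm tail gene, at -0.49 ± 0.10 (limma adjusted p = 0.026), whose signals of 5.66 to 6.55 lay at the floor or little above it.

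**Figure D3:**
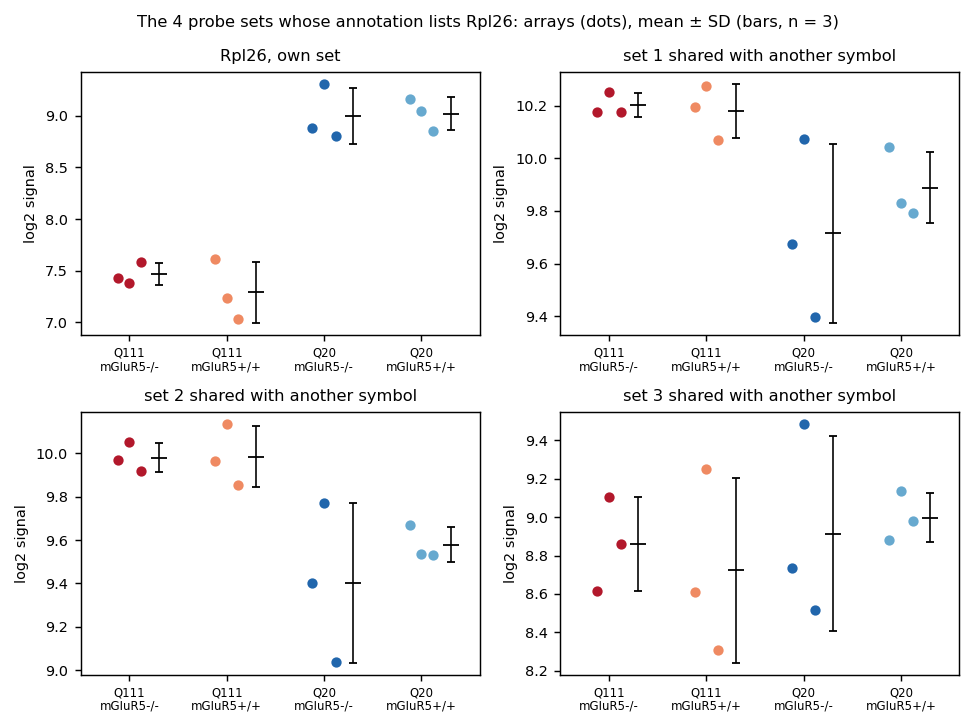
Log2 signal of the 4 probe sets that list Rpl26, by array (dots), with mean and SD per group (bars, n = 3); each panel has its own axis. The set of Rpl26 alone is lower in all 6 Q111 arrays, shared set 2 is higher in all 6, and shared set 3 overlaps between the alleles.

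The tunnel through which the new chain leaves the ribosome is also formed or rimmed by Rpl4, Rpl19, Rpl22 and Rpl23a among the genes tested. None of these was called. Rpl23a, a docking site for factors that meet the new chain, was 10.56, 10.44, 10.46, 10.41, 10.54 and 10.44 in the Q111 arrays, against 10.35, 10.33, 10.22, 10.36, 10.23 and 10.21 in the Q20 arrays, knockouts first in each. The alleles did not overlap, with a gap of 0.04, and the average log2 change was 0.19 ± 0.06 (limma adjusted p = 0.211). Rpl23a had 13 probe sets, and only that with the highest mean is given here. It was the only other gene of the 60 whose 6 Q111 and 6 Q20 arrays were apart (2 of 60 with Rpl26, 3.33%, against 1.21% of all genes).

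Rpl34, which encodes another large-subunit protein, varied by group and by array. Its signal (Entrez 68436, chromosome 3, 1 probe set) was 8.97, 9.84 and 9.65 in Q111 mGluR5-/- arrays and 9.86, 10.04 and 9.64 in Q111 mGluR5+/+ arrays. It was 10.22, 10.13 and 9.84 in Q20 mGluR5-/- arrays, against 9.04, 8.98 and 9.0 in Q20 mGluR5+/+ arrays. The arrays thus lay at 2 levels, 4 of them between 8.97 and 9.04 and 8 between 9.64 and 10.22. The lower 4 were the 3 Q20 mGluR5+/+ arrays and replicate 1 of Q111 mGluR5-/-. The log2 change for loss of mGluR5 was -0.36 ± 0.18 in Q111 mice (limma adjusted p = 1.0) and 1.06 ± 0.18 in Q20 mice, a 2.09-fold difference (limma adjusted p = 0.0127). For the Q111 allele it was 0.84 ± 0.18 with mGluR5 (1.79-fold, limma adjusted p = 0.0464) and -0.58 ± 0.18 without (limma adjusted p = 0.208). The interaction, the effect of Q111 without mGluR5 minus that with it, was -1.42 ± 0.25 (limma adjusted p = 0.0181), and Rpl34 was the single gene of 60 called in it (1.67%, against 0.437% of all genes). These calls share the Q20 mGluR5+/+ arrays. The calls were sensitive to single arrays. Without any 1 of the 12, the adjusted limma p ranged between 0.00476 and 0.181 for Q111 with mGluR5 (called in 3 of 12 cases, without replicate 1 or 2 of Q111 mGluR5-/- or replicate 3 of Q20 mGluR5-/-), between 0.00098 and 0.097 for loss of mGluR5 in Q20 mice (7 of 12, lost without any Q20 mGluR5+/+ array or replicate 1 or 2 of Q20 mGluR5-/-) and between 0.00857 and 0.0703 for the interaction (7 of 12, lost without replicate 1 of Q111 mGluR5+/+, 2 or 3 of Q20 mGluR5+/+, or 1 or 2 of Q20 mGluR5-/-).

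In 4 further probe sets that list Rpl34 beside another symbol no comparison was called. Their log2 changes for loss of mGluR5 in Q20 mice were 0.03 to 0.17, against 1.06 for the set of Rpl34 alone. Of the 10 tested neighbours on chromosome 3, 0 were called. After the values had been seen, 3 of these, Etnppl, Ostc and Casp6, were picked out because their 4 simple comparisons had the signs of those of Rpl34 and their interactions were large. Etnppl, a phospholyase of astrocytes, was 6.61, 7.60 and 7.26 in Q111 mGluR5-/- arrays and 7.19, 7.82 and 7.57 in Q111 mGluR5+/+ arrays. It was 7.84, 7.85 and 7.28 in Q20 mGluR5-/- arrays, against 6.94, 6.48 and 6.84 in Q20 mGluR5+/+ arrays. Like Rpl34, it was low in the Q20 mGluR5+/+ arrays and in replicate 1 of Q111 mGluR5-/-. The interaction was -1.27 ± 0.32 for Etnppl (limma adjusted p = 0.192). For Ostc, a subunit of the oligosaccharyltransferase, it was -0.99 ± 0.26 (limma adjusted p = 0.243), and for the caspase gene Casp6 -0.88 ± 0.23 (limma adjusted p = 0.228). The match was not array by array, since Casp6 was also low in replicate 2 of Q111 mGluR5-/- (6.45), where Rpl34 was high, and Ostc was higher in replicate 2 of Q20 mGluR5+/+ (9.09) than in replicate 3 of Q111 mGluR5+/+ (8.94). Other neighbours had interactions near 0, such as Lef1 (0.04) and Sec24b (0.01). In 5 of the 10 neighbours all 4 simple comparisons had the sign they had in Rpl34.

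**Figure D4:**
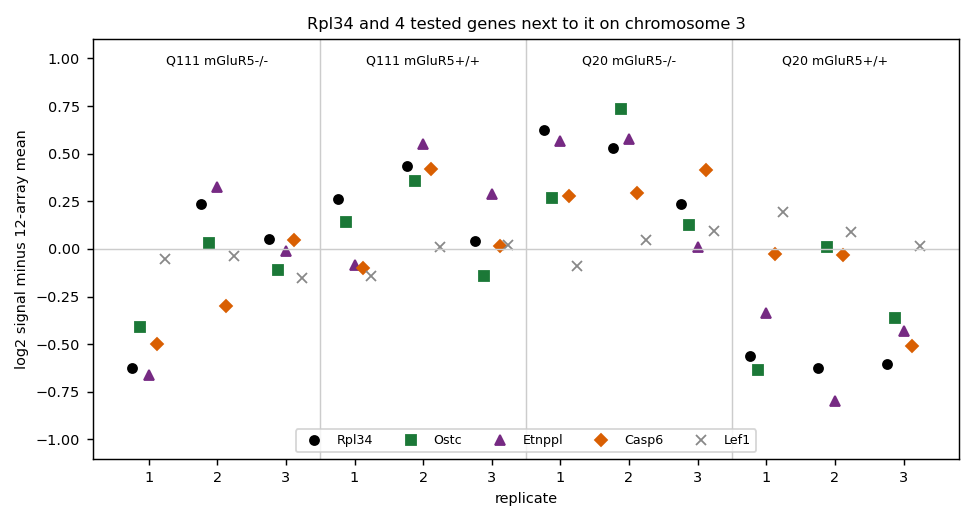
Log2 signal of Rpl34 and 4 of its neighbours on chromosome 3 in each array, minus the mean of the gene over the 12 arrays. Rpl34, Ostc, Etnppl and Casp6 are all below their means in replicate 1 of Q111 mGluR5-/- and, but for Ostc in replicate 2, in the Q20 mGluR5+/+ arrays, while Lef1 varies little.

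Rps3a1 encodes a small-subunit protein near the exit of the mRNA channel. Its signal (Entrez 20091, chromosome 3, 1 probe set) was 8.72, 8.62 and 8.26 in Q111 mGluR5-/- arrays and 8.08, 7.82 and 8.13 in Q111 mGluR5+/+ arrays. It was 7.96, 8.03 and 7.95 in Q20 mGluR5-/- arrays and 8.09, 7.97 and 8.0 in Q20 mGluR5+/+ arrays. The Q111 mGluR5-/- arrays were above the 9 others. The log2 change for Q111 without mGluR5 was 0.56 ± 0.12 (1.47-fold, limma adjusted p = 0.0359), against -0.01 ± 0.12 with mGluR5. For loss of mGluR5 it was 0.52 ± 0.12 in Q111 mice (limma adjusted p = 0.108) and -0.04 ± 0.12 in Q20 mice. The interaction of 0.57 ± 0.17 was not called (limma adjusted p = 0.369). Leaving out 1 array at a time kept the call in 4 of 12 cases (replicate 3 of Q111 mGluR5-/-, replicates 2 and 3 of Q111 mGluR5+/+ and replicate 1 of Q20 mGluR5+/+), with adjusted limma p between 0.00836 and 0.201. A set that lists Rps3a1 with a second symbol ran the other way without being called, at -0.30 ± 0.12 for Q111 without mGluR5 (limma adjusted p = 0.475), and another was at 0.04 ± 0.09. Of its 10 tested neighbours, 0 were called in any comparison.

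Among genes that were not called, Rps20 had the smallest p for loss of mGluR5 in Q111 mice and on average. It encodes a protein of the head of the small subunit. Its signal was 10.95, 10.88 and 11.0025 in Q111 mGluR5-/- arrays, against 10.53, 10.67 and 10.46 in Q111 mGluR5+/+ arrays. It was 10.75, 10.74 and 10.70 in Q20 mGluR5-/- arrays, against 10.63, 10.58 and 10.51 in Q20 mGluR5+/+ arrays. All 6 knockout arrays lay above all 6 others by a gap of 0.03, and no other of the 60 genes did so (1.67%, against 0.305% of all genes). The log2 change was 0.39 ± 0.09 in Q111 mice (limma adjusted p = 0.0978), 0.16 ± 0.09 in Q20 mice (limma adjusted p = 0.91) and 0.28 ± 0.06 on average (limma adjusted p = 0.0995). Without replicate 2 of Q111 mGluR5+/+, the adjusted limma p was 0.0485 in Q111 mice and 0.0403 on average. In the average effect of mGluR5 loss 0 of 60 genes were called, against 0.293% of all genes, and 4 had an unadjusted limma p below 0.05 (6.67%, against 5.32%).

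The other small-subunit genes with larger values were likewise not called. Rps9, a protein near the entrance of the mRNA channel, was 10.18, 9.86 and 9.87 in Q111 mGluR5-/- arrays, against 9.49, 9.73 and 9.58 in Q111 mGluR5+/+ arrays, a log2 change of 0.37 ± 0.11 (limma adjusted p = 0.333). The second probe set of Rps9 gave 0.10 ± 0.12 for this comparison. Rps19, the first gene known to be mutated in Diamond-Blackfan anaemia in humans, was 9.09, 9.63 and 9.19 in Q20 mGluR5-/- arrays, against 8.94, 8.84 and 8.98 in Q20 mGluR5+/+ arrays. Its log2 change was 0.38 ± 0.12 (limma adjusted p = 0.416), and 1 array, replicate 2, stood above the rest. Without that array the change was 0.22 (limma adjusted p = 1.0). Rps13 was 8.83, 8.97 and 8.62 in Q111 mGluR5+/+ arrays, against 8.43, 8.45 and 8.49 in Q20 mGluR5+/+ arrays, a change of 0.35 ± 0.12 (limma adjusted p = 0.43). With the interquartile range of the array as a covariate Rps13 was called (0.42, limma adjusted p = 0.0336). The other probe sets of Rps13 gave 0.02 ± 0.21 and 0.13 ± 0.19 for the same comparison. The groups did not overlap in these 3 comparisons. Across all 60 genes, groups did not overlap for 10 genes in mGluR5-/- against mGluR5+/+ in Q111 mice (16.7%, against 7.46% of all genes). They did not overlap for 7 in Q20 mice (11.7%, against 12.8%), 8 for Q111 with mGluR5 (13.3%, against 9.69%) and 8 without it (13.3%, against 19.1%).

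The stalk that recruits elongation factors is made of Rplp0, Rplp1 and Rplp2 on a base with Rpl12. Of these 4 genes 0 were called. Rplp2 was 8.30, 8.36 and 8.51 in Q111 mGluR5-/- arrays, against 8.04, 7.91 and 7.97 in Q20 mGluR5-/- arrays. These arrays did not overlap, and the log2 change was 0.42 ± 0.11 (limma adjusted p = 0.133), against 0.14 ± 0.11 with mGluR5 (limma adjusted p = 0.944). Rplp2 was called without mGluR5 when replicate 2 of Q111 mGluR5+/+ was left out (limma adjusted p = 0.0263) or replicates 2 and 3 of that group (limma adjusted p = 0.0373), with the change itself unaltered. Its average over both genotypes of 0.28 ± 0.08 (limma adjusted p = 0.142) was called without the same replicate 2 (0.35, limma adjusted p = 0.0111). Rpl5, which with Rpl11 holds the small ribosomal RNA of the large subunit and can restrain Mdm2, an inhibitor of p53, changed by -0.002 ± 0.103 for Q111 without mGluR5 and by 0.01 ± 0.10 with it. Rpl10a, a large-subunit protein often tagged to purify ribosomes of a cell type, was 12.05, 12.22 and 11.72 in Q20 mGluR5-/- arrays, against 11.61, 11.77 and 11.57 in Q20 mGluR5+/+ arrays, which overlapped. Its change was 0.35 ± 0.12 (limma adjusted p = 0.563), and its 4 probe sets gave 0.21 to 0.35. The paralogs tested, Rpl3l, Rpl7l1, Rpl10l, Rps4l and Rps27l, had 0 called changes.

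**Figure D5:**
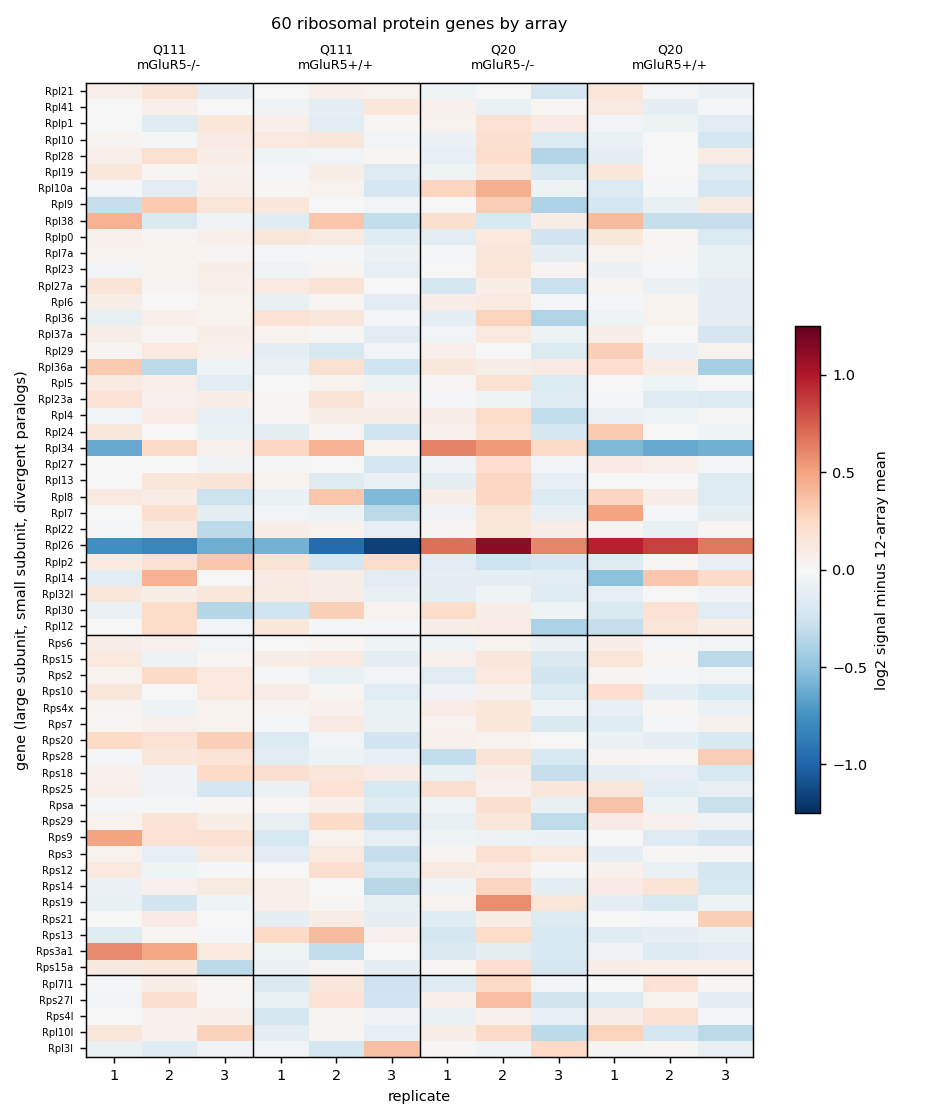
Log2 signal of each of the 60 tested genes in each of the 12 arrays, minus the mean of the gene over the arrays, with red above and blue below the mean. Rpl26 and Rpl34 stand out by group, and replicate 2 (red) and replicate 3 (blue) of Q20 mGluR5-/- differ across most genes.

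The genes also shifted together from array to array within groups. The median deviation of the 60 genes from their own means was 0.144 in replicate 2 of Q20 mGluR5-/- and -0.145 in replicate 3 of the same group, the ends of the range over the 12 arrays. All tested genes had medians of 0.037 and 0.019 in these arrays. By group the median deviation averaged 0.046 ± 0.010 in Q111 mGluR5-/-, -0.024 ± 0.073 in Q111 mGluR5+/+, -0.004 ± 0.144 in Q20 mGluR5-/- and -0.030 ± 0.061 in Q20 mGluR5+/+ arrays (SD, n = 3 each). The differences between the groups were thus smaller than the spread within Q20 mGluR5-/-. The interquartile range of the array was 2.95 in replicate 2 and 2.72 in replicate 3 of that group, and its part in the shift was not tested.

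Of the 61 genes 39 had several probe sets and 22 had 1. All sets of a gene had the same sign for 17 of the 39 in the effect of Q111 with mGluR5, for 22 without it, and for 24 in each of the 2 effects of mGluR5 loss. The median range between sets of a gene was 0.14, 0.09, 0.13 and 0.08 log2 units in these comparisons, in that order. The largest range was 0.599 (Rplp1), 0.331 (Rps9), 0.475 (Rps6) and 0.385 (Rps28), in the same order. The 3 called genes had 1 set each, so that none of their changes was seen by a second set of that gene alone.

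Genes that work with the ribosomal proteins were read beside them. Of 16 translation factors and other genes with TOP mRNAs, 0 were called in any comparison, with medians of -0.04 for Q111 with mGluR5 and -0.08 without it. Of 37 genes of ribosome biogenesis 0 were called. For Q111 with mGluR5 26 of them were below 0 (median -0.05), against 9046 of the 16721 tested genes (median -0.01). Without mGluR5 28 were below 0 (median -0.10), against 9481 (median -0.02). For loss of mGluR5 in Q20 mice 33 were above 0 (median 0.08), against 9530 (median 0.02), and in Q111 mice 22 (median 0.04), against 8803 (median 0.01). The smallest p was that of Polr1a, the largest subunit of RNA polymerase I, at -0.41 ± 0.09 for Q111 without mGluR5 (limma adjusted p = 0.0607). Of 17 genes of mTOR and p53 control 0 were called, Tsc2, an inhibitor of mTOR signalling, being at -0.40 ± 0.11 for Q111 with mGluR5 (limma adjusted p = 0.223). In that comparison 14 of the 17 were below 0 (median -0.12), and for Q111 without mGluR5 13 were (median -0.08). For loss of mGluR5 10 were below 0 in Q20 mice (median -0.02) and 6 in Q111 mice (median 0.03). Of 77 proteins of the mitochondrial ribosome, a separate machine, 1 was called. Mrpl20 was higher by 0.73 ± 0.14 for Q111 with mGluR5 (limma adjusted p = 0.0221). It was lower, at -0.77 ± 0.14, for mGluR5-/- against mGluR5+/+ in Q111 mice (limma adjusted p = 0.0254). That is 1 of 77 genes in each, against 0.574% and 0.275% of all tested genes. Over all comparisons, 0.275% to 1.32% of all tested genes were called. Nothing particular to these lists is read from 0 or 1 call.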

How the data were processed

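The deposited values are log2 signals made by the authors with Partek and RMA, per the submitters' processing notes, and the series text names Partek Genomics Suite 6.5. RMA corrects background, equalizes the arrays by quantiles and summarizes probes, so that a shift common to all genes cannot be seen. Of 35556 probe sets, 21789 carried 1 symbol of the platform annotation, 1621 several and 12146 none, and sets with several symbols were read only beside a named gene. Each gene was read from the set with the highest mean, and genes above the 25th percentile in at least 3 arrays were tested.

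One mean per group was fitted over 12 arrays with limma 3.58.1 in R 4.3.3 (prior degrees of freedom 6.88, residual 8), two-sided, with Benjamini-Hochberg adjustment over 16721 genes. Errors of changes are standard errors. The number of arrays limits the precision. On simulated data of 16721 genes the test recovered 59% of 1.5-fold and 96.5% of 2-fold changes for Q111 with mGluR5. The simulated errors were independent between genes and arrays, without the shifts that genes shared in these arrays. These percentages may therefore not hold for the data. The members and gene lists were chosen with earlier results of these data known. Named genes were those called, the 3 with the largest moderated t per comparison, those failing the filter, and the member of each list with the smallest p. Rpl23a met none of these rules and is described, after the values had been seen, because its alleles did not overlap. Some other genes are named only as members of a list, exceptions or extremes. Neighbours and promoters came from RefSeq on GRCm38.p6 by Entrez identifier (60 of 60 tested genes were placed), and the files name no build. Alternatives covered the replicate number, scaling, filter, model, probe sets, leaving out arrays and the study's criteria, which include a 1.5-fold change. Rps3a1 was at 1.47-fold for Q111 without mGluR5, below that threshold. Plots used matplotlib 3.10.9.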

Additional observations from a re-analysis of the deposited data

Results flagged for a closer look

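For Rpl34 the effect of the Q111 allele differed between mice without and with mGluR5 by a test of the difference itself. The log2 change was -0.58 ± 0.18 without the receptor and 0.84 ± 0.18 with it, a difference of -1.42 ± 0.25 (limma adjusted p = 0.0181, called in 6 of 9 alternatives and without 7 of 12 single arrays).

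A probe set that lists Rpl26 beside a second symbol, and that was not used for any gene, was 0.49 ± 0.11 log2 units higher in Q111 mice on average (limma adjusted p = 0.0423 over 27688 probe sets), higher in 6 of 6 Q111 arrays, while the set of Rpl26 alone changed by -1.63 ± 0.11.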

How the results depend on the processing

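Rpl26 remained called in both effects of Q111 and in their average under every alternative and without any single array (log2 change -1.89 to -1.41). The number of called ribosomal protein genes was less stable. For Q111 with mGluR5 it was 1 in place of 2 with all probe sets (an alternative chosen after seeing the data), with no filter, with the unmoderated model and without replicates 2 and 3 of Q111 mGluR5+/+, the extremes of principal component 1, which leaves 1 array in that group, assumed to vary like the other groups. Rpl34 was the gene lost, with adjusted p of 0.079, 0.0539, 0.29 and 0.365. It was 3 with the interquartile range as a covariate, which added Rps13. For Q111 without mGluR5 it was 1 in place of 2 with all probe sets, in the compared groups only, with median centring, with the unmoderated model and by the study's criteria, where Rps3a1 was lost, and 3 without those 2 arrays, which added Rplp2. For mGluR5 loss in Q20 mice it was 0 in place of 1 with all probe sets and with the unmoderated model, and for the interaction 0 in place of 1 under these and without those 2 arrays. For mGluR5 loss in Q111 mice it was 2 in place of 0 with the interquartile range as a covariate (Rps20 and Rps3a1), 1 with quantile normalization (Rps20) and 1 with the replicate block (Rps3a1). Averaged over alleles, 1 gene was called in place of 0 with that covariate (Rps20). The block changed no other count. Samples of the same number correlated at -0.036 to 0.54 over 12 pairs, 8 of them over 0.1 and those of replicate 2 at 0.41 to 0.54, and in 8 of 12 the sample correlated best with its own number in the other group. Replicate 2 had the highest interquartile range in all 4 groups. Not every pair was over 0.1 and no label explains the number, so it was not taken to pair the samples, but what replicates of a number share was not tested. Leaving out 1 array gave 1 to 2 genes for Q111 with mGluR5, 1 to 3 without it, 1 to 3 on average, 0 to 1 for each effect of mGluR5 loss, its average and the interaction. The median change for mGluR5 loss in Q20 mice ranged between -0.068 and 0.080, the lowest without replicate 2 of Q20 mGluR5-/-. The cause of these differences was not tested.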
